A study of Mus musculus with 4 samples.

Results

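CXC chemokines are small secreted proteins that direct the migration of leukocytes, and 9 genes of this family were followed in the liver of mice after acetaminophen (APAP) intoxication. The members, chosen by gene symbol, were Cxcl1, Cxcl2, Cxcl5, Cxcl9, Cxcl10, Cxcl12, Cxcl13, Cxcl14 and Cxcl16, which are 9 of the 27027 entries in the count table. Hepatic RNA of male C57BL/6J mice, 9 to 12 weeks old and fasted for 10 h overnight, was sequenced from the 3′ mRNA ends by massive analysis of cDNA ends (MACE). Control mice received 0.9% NaCl and treated mice received APAP at 300 mg/kg by intraperitoneal injection, and livers were taken at 24 h or 48 h, the time in which the injury begins to resolve. The RNA of 6 mice was pooled for each control condition and that of 7 mice for each APAP condition, so that each of the 4 conditions is 1 library of 4859661 to 5698778 reads. No condition has a replicate library, and no difference between mice can be estimated. Levels are given as RPM, the reads of a gene in 1000000 reads of its library. MACE counts 1 end per transcript, so levels of different genes were compared without division by length. A fold is the APAP library over the control library of the same time point after scaling by size factors, with an exact 95% interval that covers counting error only. A gene was called when the library with more had at least 10 reads, the fold was at least 2 and the interval excluded 1.

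Members with the ELR motif before their first cysteines, here Cxcl1, Cxcl2 and Cxcl5, bind Cxcr2 and attract neutrophils. Cxcl9 and Cxcl10 are induced by interferons and bind Cxcr3 on activated T cells and NK cells. Cxcl12 binds Cxcr4 and is made constitutively by stromal and endothelial cells, Cxcl13 attracts B cells through Cxcr5, and Cxcl16 is a membrane-anchored ligand of Cxcr6. Cxcl14 is expressed constitutively in many epithelia. APAP overdose kills pericentral hepatocytes, and neutrophils and monocytes enter the necrotic areas.

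In GENCODE release 21 of the mouse genome (GRCm38), 6 of the 9 genes lie on chromosome 5. Cxcl5 (chr5:90759360-90761624), Cxcl1 (chr5:90891241-90893115) and Cxcl2 (chr5:90903871-90905938) follow each other on the plus strand, with 10755 bases between Cxcl1 and Cxcl2. Cxcl9 (chr5:92321347-92328079) and Cxcl10 (chr5:92346638-92348889) lie 18558 bases apart on the minus strand, and Cxcl13 (chr5:95956951-95961068) lies on the plus strand. Cxcl12 is on chr6:117168535-117181367 (plus strand), Cxcl14 on chr13:56288643-56296551 (minus strand) and Cxcl16 on chr11:70453983-70459984 (minus strand). Cxcl10 lies over its 2252 bases within Art3, and Cxcl16 overlaps Zmynd15 by 552 bases, in both cases on the opposite strand. The count table marks 16 entries as antisense features, but whether reads were counted by strand is not given in the sources used here, so reads of these overlapping genes may not be told apart. The last 300 bases of the members' 14 transcripts had no match to a transcript of another gene at 95% identity over 100 bases.

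Promoters of 7 members were found in RefSeq (GRCm38.p6), each from 250 bases before to 50 bases after the start. Those of the neighbours Cxcl1 and Cxcl2 and of the neighbours Cxcl9 and Cxcl10 are shown, because the members of each pair had different levels after APAP. Capitals mark the letters found by a search for motifs. The windows are chr5:90890995-90891294, plus strand, for Cxcl1, chr5:90903649-90903948, plus strand, for Cxcl2, chr5:92328030-92328329, minus strand, for Cxcl9, and chr5:92348840-92349139, minus strand, for Cxcl10.
Cxcl1: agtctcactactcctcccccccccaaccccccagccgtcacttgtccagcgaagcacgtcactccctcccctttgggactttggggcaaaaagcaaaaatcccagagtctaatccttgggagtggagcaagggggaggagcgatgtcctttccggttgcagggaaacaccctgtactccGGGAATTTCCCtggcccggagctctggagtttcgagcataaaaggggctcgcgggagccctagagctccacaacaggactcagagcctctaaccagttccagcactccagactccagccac
Cxcl2: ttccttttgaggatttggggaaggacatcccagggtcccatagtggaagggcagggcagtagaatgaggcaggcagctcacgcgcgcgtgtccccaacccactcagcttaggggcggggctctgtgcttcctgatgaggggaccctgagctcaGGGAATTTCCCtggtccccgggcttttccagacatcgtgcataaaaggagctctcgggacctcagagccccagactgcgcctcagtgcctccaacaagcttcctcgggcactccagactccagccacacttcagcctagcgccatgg
Cxcl9: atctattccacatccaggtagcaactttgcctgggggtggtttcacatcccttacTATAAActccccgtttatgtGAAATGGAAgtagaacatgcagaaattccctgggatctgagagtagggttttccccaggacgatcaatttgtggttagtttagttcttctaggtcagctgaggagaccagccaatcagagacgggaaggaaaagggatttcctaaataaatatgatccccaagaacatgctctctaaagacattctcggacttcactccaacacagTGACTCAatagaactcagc
Cxcl10: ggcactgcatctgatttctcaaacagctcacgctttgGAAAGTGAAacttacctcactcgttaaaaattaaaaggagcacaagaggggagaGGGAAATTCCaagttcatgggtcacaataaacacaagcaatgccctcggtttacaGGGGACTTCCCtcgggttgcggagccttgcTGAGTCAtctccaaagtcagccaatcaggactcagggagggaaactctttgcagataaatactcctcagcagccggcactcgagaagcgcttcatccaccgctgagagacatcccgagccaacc

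The NF-κB consensus was found in the promoters of Cxcl1 (-71 to -61), Cxcl2 (-97 to -87) and Cxcl10 (-159 to -150 and -104 to -94), with positions counted from the start. In Cxcl1 and Cxcl2 the same letters, GGGAATTTCCC, hold a match on each strand that overlap each other, and the second place in Cxcl10 holds 2 overlapping matches. These are 3 of 7 promoters, and 8.46% of 32851 RefSeq promoters of this length hold the motif. GAAANNGAA, a part of interferon response elements, was found in Cxcl9 (-175 to -167), Cxcl10 (-213 to -205) and Cxcl14 (-172 to -164), and in 8.56% of all promoters. TGANTCA, the AP-1 motif, was found in Cxcl9 (32 to 38) and Cxcl10 (-74 to -68), and in 7.81% of all promoters. TTCNNNGAA, the STAT motif, was found in Cxcl14 (-191 to -183), and in 8.30% of all promoters. TATAAA, searched on the strand of the gene alone, was found in Cxcl9 (-195 to -190) and Cxcl13 (-46 to -41), and in 8.32% of all promoters. The other motifs were searched on both strands, and the places of different motifs did not overlap in these promoters. A match of letters does not show that a factor binds there.

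Across the 9 genes, the summed level was 114 RPM and 129 RPM in the control libraries at 24 h and 48 h and 180 RPM and 181 RPM in the APAP libraries. These sums are not scaled by the size factors used for folds. Scaling by library totals instead moved the median log2 fold of all genes up by 0.19 at 24 h and 0.27 at 48 h. Cxcl2 and Cxcl5 had at most 1 read in any library, and the remaining 7 members had at least 10 reads in a library. At 24 h, Cxcl1, Cxcl10, Cxcl13 and Cxcl14 were called higher in the APAP library, and Cxcl9 was called lower. At 48 h, Cxcl1 and Cxcl14 were called higher and Cxcl9 lower. Of all genes with enough reads, 5.9% were called higher and 5.21% lower at 24 h, and 5.64% were called higher and 5.2% lower at 48 h. At a fold of at least 5, Cxcl1 and Cxcl10 were called at 24 h and Cxcl1 at 48 h, where 0.985% and 0.585% of all genes were called. The members were chosen as a family and not at random, so these shares serve for orientation. In pooled whole liver, fewer cells of a type and less RNA per cell cannot be told apart. The 6 hepatocyte markers, led by the albumin gene Alb, summed to 84655 to 99930 RPM in the 4 pools, and 1 of them, Cyp3a11, was called lower, 5.43 times at 24 h and 11.7 times at 48 h.

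**Figure D1:**
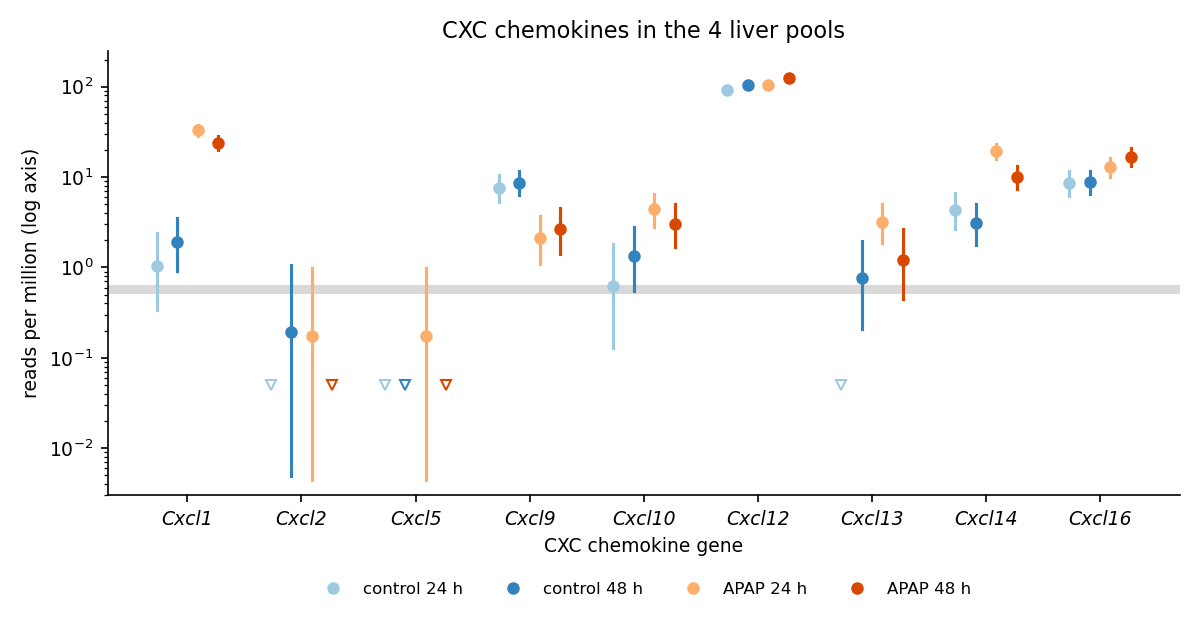
Levels of the 9 CXC chemokine genes (x axis) in RPM on a log axis (y axis). Points are the 4 pools, bars are exact 95% Poisson intervals, open triangles at the bottom mark libraries with 0 reads, and the grey band is the level of 3 reads. Cxcl1, Cxcl10, Cxcl13, Cxcl14 and Cxcl16 sit higher in both APAP libraries than in both control libraries, Cxcl9 sits lower, and Cxcl12 sits near 100 RPM in all 4 pools.

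The neutrophil-attracting ligand Cxcl1 had the highest fold among the members with reads in both pools. Control libraries held 5 (24 h) and 10 reads (48 h), and APAP libraries held 187 (24 h) and 119 reads (48 h), or 1.03, 1.93, 32.8 and 24.1 RPM. Both APAP libraries were above both control libraries. The fold was 28.0 (11.8 to 87.3) at 24 h, rank 4 of 13001 genes from the highest fold, and 10.4 (5.46 to 22.3) at 48 h, rank 18 of 12985. Against the control library of the other time point, the fold was 14.9 at 24 h and 19.6 at 48 h, so the size of the fold depended on which control library was used. The APAP libraries alone gave a ratio of 48 h over 24 h of 0.70 (0.552 to 0.886).

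**Figure D2:**
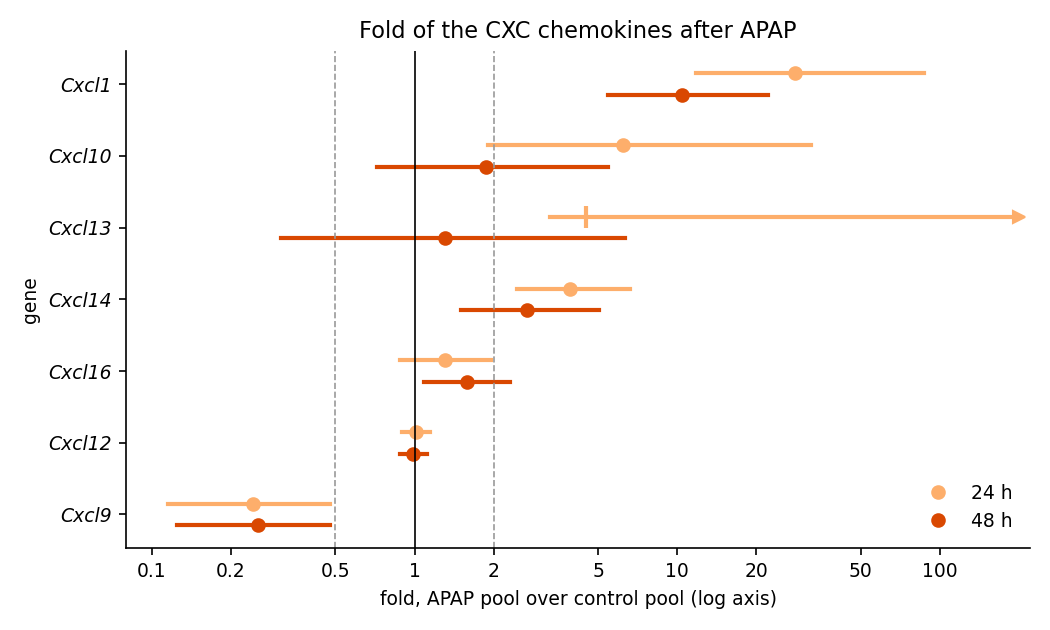
Fold of the APAP library over the control library of the same time point (x axis, log axis) for the 7 members with at least 10 reads in a library (y axis), at 24 h and 48 h. Points are folds, bars are exact 95% counting intervals, dashed lines mark folds of 0.5 and 2, and the arrow for Cxcl13 at 24 h marks an interval without an upper end, with a tick at the fold against a floor of 3 reads. The points of Cxcl1 lie farthest to the right and those of Cxcl9 farthest to the left at both times.

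Cxcl2 and Cxcl5, which bind the same receptor as Cxcl1, were near the limit of detection. Cxcl2 had 0, 1, 1 and 0 reads and Cxcl5 had 0, 0, 1 and 0 reads in the 4 libraries (control 24 h, control 48 h, APAP 24 h and APAP 48 h). A count of 0, taken as a limit of 3 reads, allows a level of up to 0.617 RPM in the control library at 24 h and 0.608 RPM in the APAP library at 48 h, against 24.1 RPM of Cxcl1 in the latter. No fold was computed for either gene, and a change in them was not detectable at this depth. Cxcl1 therefore carried 187 of the 189 reads of these 3 ligands in the APAP library at 24 h and all 119 at 48 h. Cxcl3, another ELR ligand, had 0, 0, 3 and 2 reads.

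Of 9 neutrophil markers, 7 had an entry, and Ly6g and Mpo were not analysed here. The summed level of these 7 was 3.09 to 3.27 RPM in the control libraries and 43.0 and 35.0 RPM in the APAP libraries at 24 h and 48 h. S100a8 and S100a9, subunits of calprotectin, and Retnlg were called higher at 24 h, S100a8, S100a9 and Csf3r, the receptor of granulocyte colony-stimulating factor, at 48 h. Camp, Ngp and Ltf had at most 3 reads in any pool. S100a8 had 5, 10, 139 and 106 reads beside the 5, 10, 187 and 119 reads of Cxcl1. The part of neutrophil RNA in the result for Cxcl1 was not tested.

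**Figure D3:**
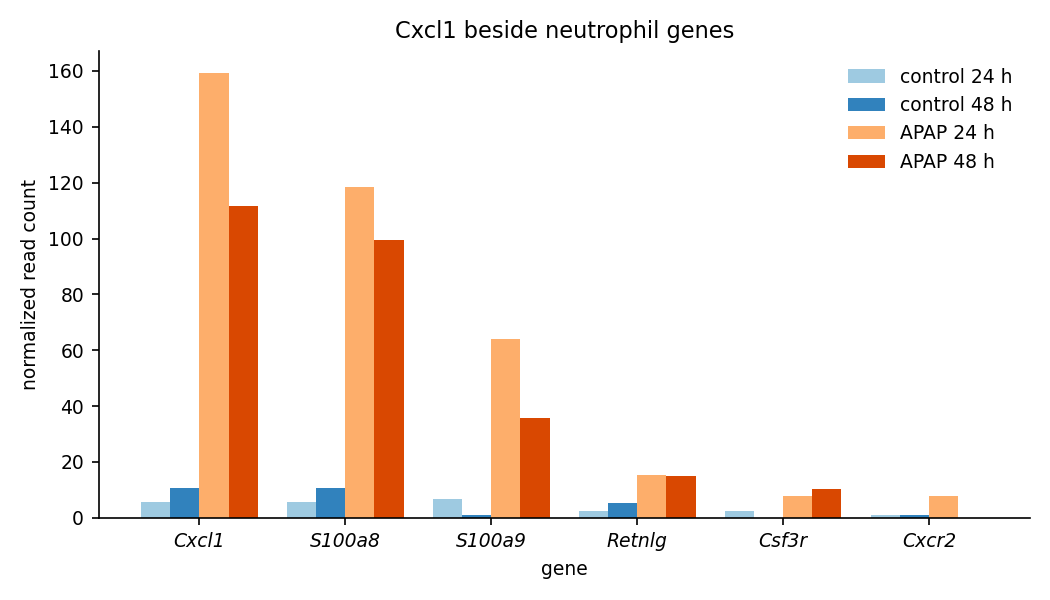
Normalized read count (y axis) of Cxcl1, of neutrophil genes with a call and of Cxcr2, the receptor of Cxcl1 (x axis), in the 4 pools, as bars from 0. Cxcl1, S100a8 and S100a9 are higher in both APAP libraries than in both control libraries, and Cxcr2 has 9 reads in the APAP library at 24 h and 0 at 48 h.

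Cxcl9 and Cxcl10, the CXCR3 ligands, were called in opposite directions at 24 h. Cxcl9 had 37 and 45 reads in the control libraries at 24 h and 48 h and 12 and 13 reads in the APAP libraries, or 7.61, 8.67, 2.11 and 2.63 RPM. Both APAP libraries were below both control libraries. Cxcl9 was 4.12 times lower (2.10 to 8.67) at 24 h and 3.96 times lower (2.10 to 8.0) at 48 h.

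Cxcl10 had 3 and 7 reads in the control libraries and 25 and 15 reads in the APAP libraries, or 0.617, 1.35, 4.39 and 3.04 RPM. Both APAP libraries were above both control libraries, but the reads in the control libraries were few. The fold was 6.24 (1.91 to 32.3) at 24 h, against a control count of 3, and 1.87 (0.719 to 5.43) at 48 h, which was not called. Against the control library of the other time point, the fold was 2.84 at 24 h, under 5, and 4.12 at 48 h, which was called.

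A comparison of both CXCR3 ligands within each library, chosen after their values were seen, does not depend on the size factors. For each read of Cxcl10 there were 12.3 and 6.43 reads of Cxcl9 in the control libraries at 24 h and 48 h, and 0.48 and 0.867 in the APAP libraries. The fold of Cxcl10 exceeded that of Cxcl9 by 25.7 times (5.96 to 148) at 24 h and 7.42 times (2.22 to 25.8) at 48 h. Against the control library of the other time point it exceeded it by 13.4 times at 24 h and 14.2 times at 48 h, so no order of the time points can be read from these values. Cxcl9 had more reads than Cxcl10 in both control libraries and fewer in both APAP libraries. Their summed reads, 40 and 52 in the control libraries and 37 and 28 in the APAP libraries, gave a fold of 0.693 (0.431 to 1.11) at 24 h and were 2.12 times lower (1.32 to 3.49) at 48 h.

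Cxcl12, the ligand of Cxcr4, was the most abundant member in each pool. It had 444, 540, 600 and 611 reads, or 91.4, 104, 105 and 124 RPM, in the 4 libraries (control 24 h, control 48 h, APAP 24 h and APAP 48 h). The normalized counts of the APAP libraries, 511 and 573, lay within the range of the control libraries, 505 to 579. The fold was 1.01 (0.894 to 1.15) at 24 h, then 0.99 (0.88 to 1.11) at 48 h. Scaled by library totals, which moved the median log2 fold of all genes by 0.19 at 24 h and 0.27 at 48 h, the fold was 1.15 and 1.19. Cxcl12 held 80.4% (76.9 to 83.7, exact binomial interval) and 80.7% (77.5 to 83.6) of the reads of the 9 genes in the control libraries, and 58.4% (55.3 to 61.5) and 68.2% (65.0 to 71.2) in the APAP libraries. The share of Cxcl1 was 0.906% and 1.49% in the control libraries and 18.2% and 13.3% in the APAP libraries.

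**Figure D4:**
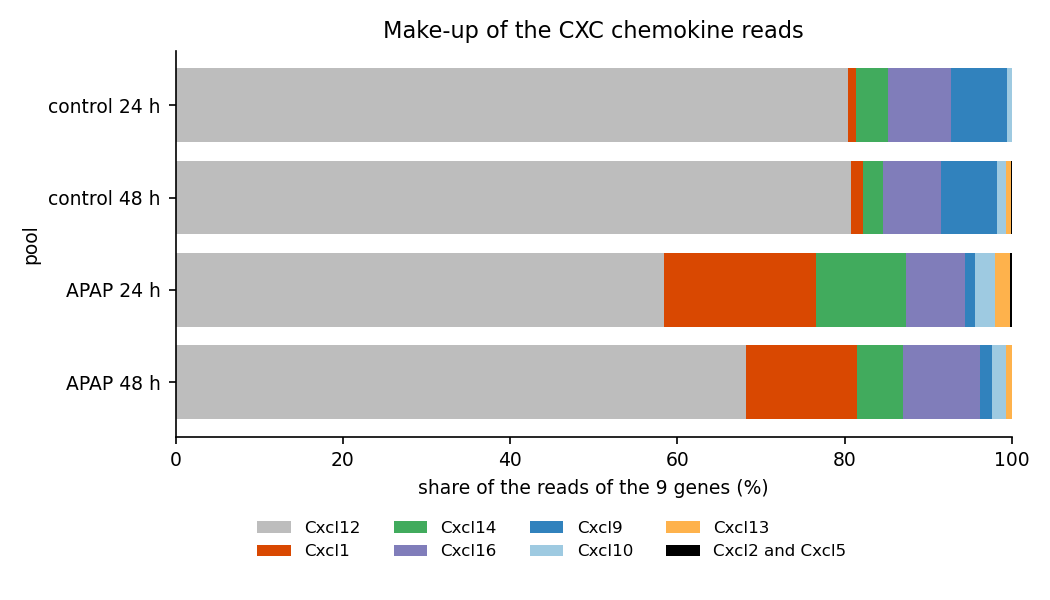
Share of the reads of the 9 CXC chemokine genes (x axis, percent) taken by each gene in each of the 4 pools (y axis), as stacked bars that add to 100%. The grey part, Cxcl12, is over 80% in both control libraries and 58.4% and 68.2% in the APAP libraries, where the parts of Cxcl1 and Cxcl14 are wider.

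Cxcl14 had 21 and 16 reads in the control libraries at 24 h and 48 h and 110 and 49 reads in the APAP libraries, or 4.32, 3.08, 19.3 and 9.92 RPM. Both APAP libraries were above both control libraries, and the APAP library at 24 h was the highest. The fold was 3.92 (2.45 to 6.59) at 24 h, then 2.68 (1.5 to 5.05) at 48 h. Against the control library of the other time point the fold at 48 h was 1.92, which was not called.

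Cxcl13, the B cell chemoattractant, had 0 and 4 reads in the control libraries and 18 and 6 reads in the APAP libraries, up to 3.16 RPM. With the control library at the floor of 3 reads, it was called 4.50-fold higher at 24 h. The counting interval of this fold began at 3.29 and had no upper end. This call needs the floor, since 0 reads give no fold without it, and it is lost with a floor of 10 reads or a minimum of 20 reads. At 48 h the fold was 1.31 (0.311 to 6.32), from fewer than 10 reads in each library, and was not assessed. Cxcl16 had 42 and 46 reads in the control libraries and 73 and 83 reads in the APAP libraries, or 8.64, 8.86, 12.8 and 16.8 RPM. Its fold was 1.30 (0.879 to 1.95) at 24 h, then 1.58 (1.09 to 2.31) at 48 h, under the fold required for a call.

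Both APAP libraries were above both control libraries for 5 of the 7 members with at least 10 reads in a library, and below them for 1. The same order was found for 25.4% of all genes with enough reads in the upward direction and for 24.9% in the downward direction. Between the control libraries no member was called at 2-fold, where 4.07% of all genes were called in either direction. Cxcl10, with 3 and 7 reads, and Cxcl13, with 0 and 4 reads, had too few reads there to be called. Between the APAP libraries, Cxcl13 and Cxcl14 were called lower at 48 h than at 24 h, with ratios of 0.37 (0.119 to 0.965) and 0.49 (0.343 to 0.693). No member was called higher at 48 h. Of all genes, 3.18% were called lower and 3.09% higher. The fold of Cxcl13 was lower at 48 h than at 24 h, with a ratio of at most 0.807, and it was the only one of these 7 members whose interval of the ratio of folds excluded 1, as it did for 18.4% of all genes. For Cxcl1 the ratio of the folds was 0.37 (0.0975 to 1.23), for Cxcl14 0.68 (0.310 to 1.53) and for Cxcl9 1.04 (0.385 to 2.83).

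The order of the levels in the control library at 24 h was Cxcl12, Cxcl16 (8.64 RPM), Cxcl9 (7.61 RPM), Cxcl14 (4.32 RPM), Cxcl1 (1.03 RPM) and Cxcl10 (0.617 RPM). Here the counting intervals of Cxcl16, Cxcl9 and Cxcl14 overlapped, as did those of Cxcl1 and Cxcl10. In the control library at 48 h the order was the same, with Cxcl13 (0.770 RPM) after Cxcl10, and the intervals of neighbours overlapped except between Cxcl12 and Cxcl16 and between Cxcl9 and Cxcl14. In the APAP library at 24 h the order was Cxcl12, Cxcl1 (32.8 RPM), Cxcl14 (19.3 RPM), Cxcl16 (12.8 RPM), Cxcl10 (4.39 RPM), Cxcl13 (3.16 RPM) and Cxcl9 (2.11 RPM). The intervals of Cxcl14 and Cxcl16 overlapped, as did those of the last 3. In the APAP library at 48 h Cxcl16 (16.8 RPM) was above Cxcl14 (9.92 RPM) and Cxcl9 (2.63 RPM) above Cxcl13 (1.22 RPM). The intervals of Cxcl1 and Cxcl16 overlapped there, as did those of Cxcl10, Cxcl9 and Cxcl13, whereas those of Cxcl16 and Cxcl14 did not.

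For the 6 members with at least 20 reads in a library, the genes with the most similar pattern over the 4 libraries were searched among 11362 genes, by the Euclidean distance between centred log2 normalized counts. The nearest genes to Cxcl1 were S100a8 at a distance of 0.35, Mt2 at 0.41 and Mt1 at 0.75, the last 2 being metallothionein genes that bind zinc and copper. Mt2 had 145, 353, 6645 and 3187 reads. Nearest to Cxcl9 were Aldh3a2 (245, 303, 90 and 84 reads), a fatty aldehyde dehydrogenase, Lad1, and Khk, the ketohexokinase of fructose metabolism (3264, 3874, 1176 and 1081 reads). The distances for Cxcl9 were 0.14 to 0.16. Nearest to Cxcl10 were Bcl2l11, a proapoptotic gene (7, 13, 51 and 30 reads), the transcription factor Myc (4, 11, 36 and 21 reads) and Gm17121. For Cxcl14 these were Scara5, a ferritin receptor (31, 24, 201 and 77 reads), and Gm34015, for Cxcl12 G3bp2, Usf3 and Dcun1d1, and for Cxcl16 the ribonuclease inhibitor Rnh1, Stim1 and Stard3. With 4 pools such likeness is a description of these libraries.

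Markers of monocytes and macrophages summed to 71.2 to 80.5 RPM in the control libraries and to 158 and 276 RPM in the APAP libraries. Of these 8 genes, Ly6c2, Ccr2, Lyz2 and Cd14 were called higher at 24 h, and Cd68 and Itgam in addition at 48 h. Adgre1 and Csf1r were called at neither time, with folds of 0.793 and 0.995 at 24 h and 1.14 and 0.936 at 48 h. Of 6 Kupffer cell markers, the scavenger receptor Marco was called higher at both times. The list summed to 124 to 129 RPM in the control libraries and 154 to 215 RPM in the APAP libraries. Clec4f was not called, with a fold of 0.534 (0.441 to 0.645) at 24 h and 0.985 at 48 h. At 24 h the folds of Vsig4, Timd4, Cd5l and Clec1b were 0.781, 1.04, 1.12 and 1.84. For the Kupffer cell list the median log2 fold was 0.11 at 24 h and 0.62 at 48 h. The endothelial list of 7 genes had 1 call at both times, Lyve1. It summed to 133 to 153 RPM in the control libraries and 161 to 186 RPM in the APAP libraries. Sums in RPM are not scaled by the size factors used for folds. The median log2 fold of the endothelial list was -0.08 at 24 h and -0.05 at 48 h. At 48 h the fold was 0.780 (0.625 to 0.973) for Stab2 and 1.94 (1.42 to 2.66) for Pecam1, and neither was called. Of 8 stellate cell and fibroblast markers, Colec11 was called lower at 24 h and Col1a1 and Col3a1, collagen genes, higher at 48 h. Among 6 cholangiocyte markers, Sox9 was called higher at 24 h and Spp1 at 48 h. Epcam, Krt19, Krt7 and Cldn7 were not called. At 48 h, from at most 13 reads, their folds were 0.612, 0.538, 0.219 and 0.700, with intervals that held 1. The median log2 fold of the list was 0.68 at 24 h and -0.53 at 48 h. The 8 T and NK cell markers, Cd8a at 0 reads among them, summed to 5.78 to 7.41 RPM in the control libraries. In the APAP libraries they summed to 5.26 to 6.08 RPM. The 5 B cell markers summed to 2.26 to 2.31 RPM in the control libraries and 1.82 to 2.46 RPM in the APAP libraries. Neither list had a call, but only 1 T and NK cell marker and 0 B cell markers had enough reads to be called at each time. The part of any of these cell types in the levels of the chemokines was not tested.

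Receptors of the CXC family were at low counts. Cxcr2, the receptor of Cxcl1, had 1, 1, 9 and 0 reads in the 4 libraries (control 24 h, control 48 h, APAP 24 h and APAP 48 h). The fold at 24 h was 6.74 (0.934 to 296), or 2.25 with the control library at 3 reads, and under 10 reads it was not assessed. Cxcr3, the receptor of Cxcl9 and Cxcl10, had 2, 5, 0 and 2 reads. Cxcr4, the receptor of Cxcl12, had 3, 0, 2 and 17 reads. At 48 h it was called higher, 4.96-fold against a floor of 3 reads, with a counting interval that began at 3.61. Cxcr5, the receptor of Cxcl13, had 1, 1, 4 and 4 reads, and Cxcr6, the receptor of Cxcl16, had 1, 1, 0 and 1. Cxcr1 was not analysed here. Of these 5 receptors, 1 had enough reads to be called at 48 h and none at 24 h.

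Atypical receptors bind chemokines without G protein signalling. Ackr2, which scavenges mainly inflammatory CC chemokines, had 12, 20, 5 and 7 reads and was called lower, 3.20 times (1.05 to 11.6) at 24 h and 3.27 times (1.33 to 9.15) at 48 h. Ackr3, the atypical receptor of Cxcl12, had 1, 2, 1 and 4 reads. Ackr1 had 5, 1, 8 and 4 reads and Ackr4 had 7, 5, 0 and 2 reads, and neither had enough reads to be called.

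Among the other CXC ligands, the platelet factor Pf4 had 6, 8, 15 and 32 reads and was called higher at 48 h with a fold of 3.50 (1.58 to 8.79). Ppbp, also stored in platelets, had 2, 0, 6 and 4 reads, Cxcl11, the third CXCR3 ligand, had 2, 3, 1 and 1, and Cxcl17 had 0, 0, 0 and 6. Cxcl15 was not analysed here. Of 8 proteases that process chemokines, Dpp4, which clips the N-terminus of Cxcl9, Cxcl10 and Cxcl12, had 273 and 270 reads in the control libraries and 143 and 148 in the APAP libraries. Dpp4 was 2.55 times lower (2.07 to 3.14) at 24 h and 2.09 times lower (1.70 to 2.57) at 48 h. The macrophage elastase Mmp12 had 2, 1, 41 and 54 reads and was called higher at both times, 10.2-fold and 15.7-fold with the control libraries at 3 reads, and Mmp8, the neutrophil collagenase, with 0, 1, 2 and 11 reads, was called higher at 48 h. Adam10, the sheddase of Cxcl16, was not called, with folds of 1.23 (0.892 to 1.70) and 1.57 (1.11 to 2.23), and Ctsg had 0 reads in all libraries.

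For the NF-κB pathway, which drives Cxcl1 and Cxcl10 in many cells, 14 genes of cytokines, subunits and regulators were measured. Nfkbiz, an inducible coactivator with 14 and 56 reads, Tnfaip3, an inhibitor of the pathway with 1 and 10 reads, and Zc3h12a, an RNase that degrades cytokine transcripts with 1 and 11 reads, were called higher at 24 h. Relb, a subunit of the factor, had 3 and 20 reads at 48 h and was called higher, with a fold of 5.83 (1.73 to 30.6). At 24 h Relb had 10 and 15 reads, with a fold of 1.12 (0.472 to 2.80). Its call at 48 h therefore rests on a control count of 3, beside 10 in the control library at 24 h. No gene of this list was called lower. The subunit Nfkb1, not called, had a fold of 0.626 (0.438 to 0.892) at 24 h and 1.12 (0.797 to 1.57) at 48 h. Nfkbia and Zfp36, also not called, had folds of 1.69 (1.38 to 2.08) and 1.58 (1.28 to 1.96) at 24 h. The median log2 fold over the 14 genes of the list was 0.46 at 24 h and 0.71 at 48 h. This median includes genes under 10 reads, such as Tnf, Il1b and Il17a. The median of 0.02 and 0.0039 over all genes covers only those that reached 10 reads, so these values are not directly comparable. Of the cytokines in this list, Il1b had 0 to 4 reads, Tnf 0 to 3, Il17a 0 and Il1a 4 to 12, whereas Il18 had 46, 54, 36 and 40 reads. Il18 was not called, with folds of 0.586 (0.368 to 0.927) and 0.648 (0.419 to 0.993), and Il1a had enough reads at 48 h alone, with a fold of 2.62 (0.795 to 11.2) that was not called. Il6 was not analysed here. Of 12 genes of interferon signalling, Irf8 was called higher at 24 h with a fold of 2.03 (1.14 to 3.77). Gbp2, an interferon-induced GTPase with 13 and 6 reads, was 2.89 times lower (1.03 to 9.28) at 24 h. At 48 h Gbp2 had 13 and 22 reads, with a fold of 1.48 (0.713 to 3.20). No gene of this list was called at 48 h, where the fold of Irf8 was 1.99 (1.12 to 3.68), just under the fold required. Ifng had at most 1 read in any pool, and the median log2 fold of the list was -0.04 at 24 h and 0.09 at 48 h.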

How the data were processed

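Hepatic RNA of control and APAP-treated mice was analysed as 4 pools with 1 MACE library each, grouped by their labels. The authors treated the RNA with DNase and made libraries of 3′ ends. They removed duplicates by unique molecular identifiers, used cutadapt for low-quality bases and clipped poly(A)-tails before mapping on mm10. HTSeq gave the deposited count per gene, which is not normalized. Tool versions and the aligner are not given in the sources used here. The same table holds RPM values and log2 ratios, p-values and FDR values of the authors' own comparisons, which were not used.

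Size factors were computed by DESeq2 1.42.0 (median of ratios, 0.88 to 1.17) under R 4.3.3, and TMM factors of edgeR 4.0.16 served as an alternative. With 1 library per group neither tool's test was run. Folds, exact Clopper-Pearson intervals at 95% and conditional intervals of ratios of folds were computed in Python 3.11.15 with scipy 1.17.1, and figures with matplotlib 3.10.9. Intervals and floors cover counting error only. A count of 0 was set to a floor of 3 reads, with 1 to 3 reads the ratio is given with its interval, and a call used the fold with the lower count raised to 3. Lists are described by calls and by median log2 folds with a pseudocount of 1. Transcript ends were compared by blastn 2.17.0. On simulated counts for 27027 genes, with 100 genes set 4-fold higher and 100 4-fold lower, 100 and 99 were called at 24 h and 100 and 100 at 48 h. The changed genes were drawn from genes whose mean normalized counts exceeded those of all members except Cxcl1, Cxcl12 and Cxcl16. Counts were drawn with Poisson error only, so this recovery does not cover the members with fewer reads or differences between mice.

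Genes named in the text are the 9 members, each receptor and other CXC ligand with an entry, called genes of the remaining lists, markers called or at 0 in all pools, and the 3 nearest genes in pattern to each member with at least 20 reads, and others that illustrate a list were named after their values were seen. One of the nearest genes is not reported here. The members and lists were chosen with earlier results of these data known. Alternatives were TMM and library-total scaling, other floors and read minimums, a fold alone without the interval, the other control library and the sum of both control libraries. The within-library comparisons of gene pairs were added after seeing the data.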

Additional observations from a re-analysis of the deposited data

Results flagged for a closer look

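Cxcl13 was noted because the interval of its ratio of folds excluded 1, as 1 of 7 members, while this held for 18.4% of all genes with enough reads. Its fold at 48 h over its fold at 24 h was at most 0.807, the upper bound of the counting interval, from 0 and 4 reads in the control libraries and 18 and 6 reads in the APAP libraries at 24 h and 48 h. The difference rests on 4 libraries with few reads, its fold at 48 h comes from fewer than 10 reads in each library, and differences between mice were not measured.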

How the results depend on the processing

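With a floor of 10 reads, 2 members were called at least 2-fold higher at 24 h, Cxcl1 and Cxcl14, and 1 at least 5-fold, Cxcl1, since this floor lowers the folds of Cxcl10 and Cxcl13 by construction. When the APAP libraries were compared alone, 3 members differed between 24 h and 48 h, Cxcl1, Cxcl13 and Cxcl14. The summed ELR ligands were 19.6-fold higher at 48 h against the control library of the other time point, which has 5 reads of these genes in place of 11. The other 69 values for the counts of calls and for the subfamily sums stayed within 1.5 times for counts and within the counting interval for sums, although the members behind a count changed. Cxcl10 in place of Cxcl14 was called at 48 h against the other control library, Cxcl14 in place of Cxcl10 was over 5-fold at 24 h against it, and Cxcl13 was over 5-fold at 24 h under library totals. Cxcl13 lost its call at 24 h without a floor and with a minimum of 20 reads. With both control libraries summed, Cxcl13 in place of Cxcl10 was over 5-fold at 24 h, and Cxcl10 was called at 48 h beside Cxcl1 and Cxcl14. Of the values for single members and for pairs of genes, 93 stayed within their counting intervals and 6 moved. No called fold changed its direction, but folds that were not called crossed 1, namely those of Cxcl12 at both times and that of Cxcl13 at 48 h, which was 0.525 with a floor of 10 reads. The 6 are Cxcl10 and Cxcl13 at 24 h with a floor of 10 reads and Cxcl12 at both times under library totals and against the other control library, where its fold was 0.883 to 1.19. No paired analysis was possible because each group is 1 library. Depth limits Cxcl2, Cxcl5, Cxcl13 and the receptors most, and Cxcl12 least.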

Other observations

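Pairs of genes were compared within libraries after their values had been seen, so that no size factor enters. The fold of Cxcl1 exceeded that of Cxcl14 by 7.14 times (2.51 to 24.8) at 24 h and 3.89 times (1.52 to 10.2) at 48 h. Against the control library of the other time point these values were 2.72 (1.11 to 6.93) and 10.2 (3.44 to 36.1), so their order over time depended on the control library. It exceeded that of Cxcl10 by 5.55 times (1.53 to 18.9) at 48 h, while at 24 h the value was 4.49 with an interval of 0.650 to 24.5. With the other control library it was the interval at 48 h that held 1, with 4.76 (0.661 to 27.0) beside 5.24 (1.53 to 16.7) at 24 h, and with both control libraries summed neither did, with 4.99 (1.78 to 13.3) and 5.29 (1.77 to 15.2). Between Cxcl1 and the neutrophil gene S100a8, the ratio of folds was 1.35 (0.303 to 5.96) at 24 h, then 1.12 (0.402 to 3.13) at 48 h, and these intervals leave room for a severalfold difference in either direction.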
